A study of Rattus norvegicus with 28 samples.

Results

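The proteasome genes examined here were the 41 genes whose symbol in the array's probe annotation is Psm followed by a letter from a to g and a number, set apart from the immunoproteasome genes Psmb8, Psmb9 and Psmb10. They were taken from 14217 genes with a probe set (a group of probes read as 1 value) of their own, and each was represented by its probe set of highest mean over 28 arrays. The rule itself uses no measured difference between groups, though it was set with earlier results of these data known. The 41 genes comprised 7 of the alpha ring, 6 of the beta ring, 6 ATPases of the base, 11 non-ATPase regulatory subunits, 7 assembly chaperones and a set of 4 holding activators and an inhibitor. Psmb6 and Psme3 were read only by probe sets that the annotation gives to several genes, and were therefore not members.

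The proteasome is the protease that degrades proteins tagged with ubiquitin. Its barrel-shaped core is built of outer alpha rings and inner beta rings, and some beta subunits carry the cutting sites. A regulatory particle caps the core, binds and removes ubiquitin, and uses a ring of ATPases to unfold proteins and feed them in. In mammalian cells the transcription factor Nfe2l1 raises transcription of most subunits together when proteasome activity is short, and interferon induces the immunoproteasome subunits that replace their constitutive counterparts.

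Kidney RNA was measured on 1-colour Affymetrix rat arrays, 1 array per sample, in female rats of the inbred Sabra strains SBH/y and SBN/y. The groups were SBH/y after right uninephrectomy (removal of the right kidney), SBH/y with 2 kidneys after a sham operation, SBN/y after right uninephrectomy and SBN/y with 2 kidneys after a sham operation, with 7 arrays in each. All groups ate standard rat chow and were killed at 5 months of age, 4 months after the operation. The samples were whole kidney, so fewer cells of a type and less RNA per cell cannot be told apart, and whether the 7 arrays of a group stand for 7 animals is not stated in the labels. The p-values therefore describe array-to-array spread, which may be partly technical.

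The deposited log2 values had array medians between 5.72 and 5.77, and the correlation between any pair of arrays lay between 0.985 and 0.997. All 15 measured tubule markers, among them Umod and Lrp2, had a mean over the arrays above every array median. The array of lowest estimated weight was SBH/y with 2 kidneys replicate 6, at 0.361 where the average array counts about 1. RNA quality was read as the difference between 3' and 5' control probe sets, averaged over the actin and Gapdh transcripts. It lay between 0.83 and 0.94 log2 units in uninephrectomized SBH/y and between 0.74 and 0.87 in SBH/y with 2 kidneys, and between 0.81 and 1.01 in uninephrectomized SBN/y and between 0.68 and 0.97 in SBN/y with 2 kidneys. Its part in the results was not tested beyond a fit with this measure as a covariate.

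Every one of the 41 proteasome genes had a mean, between 7.02 and 11.09, above the highest array median. Their arrays also lay close together. The SD of arrays within a group had a median of 0.07 log2 units over the 41 genes, against 0.12 over all probe sets, and it ran between 0.04 for Psmc2 and 0.16 for Psmc3, both ATPases of the base. Differences between groups were small throughout. The largest in any comparison was a 1.32-fold difference for Psme4, and in each of the 4 comparisons between pairs of groups at least 39 of 41 genes differed by less than 0.25 log2 units. Of the 41 genes, 18 passed the threshold (an adjusted p under 0.05 in limma, corrected over 31042 probe sets) in at least 1 of these comparisons and 23 in none. That is 43.9% of the members, where 30.4% of all probe sets passed in at least 1. The 30.4% includes dim probe sets, which the members do not.

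**Figure D1:**
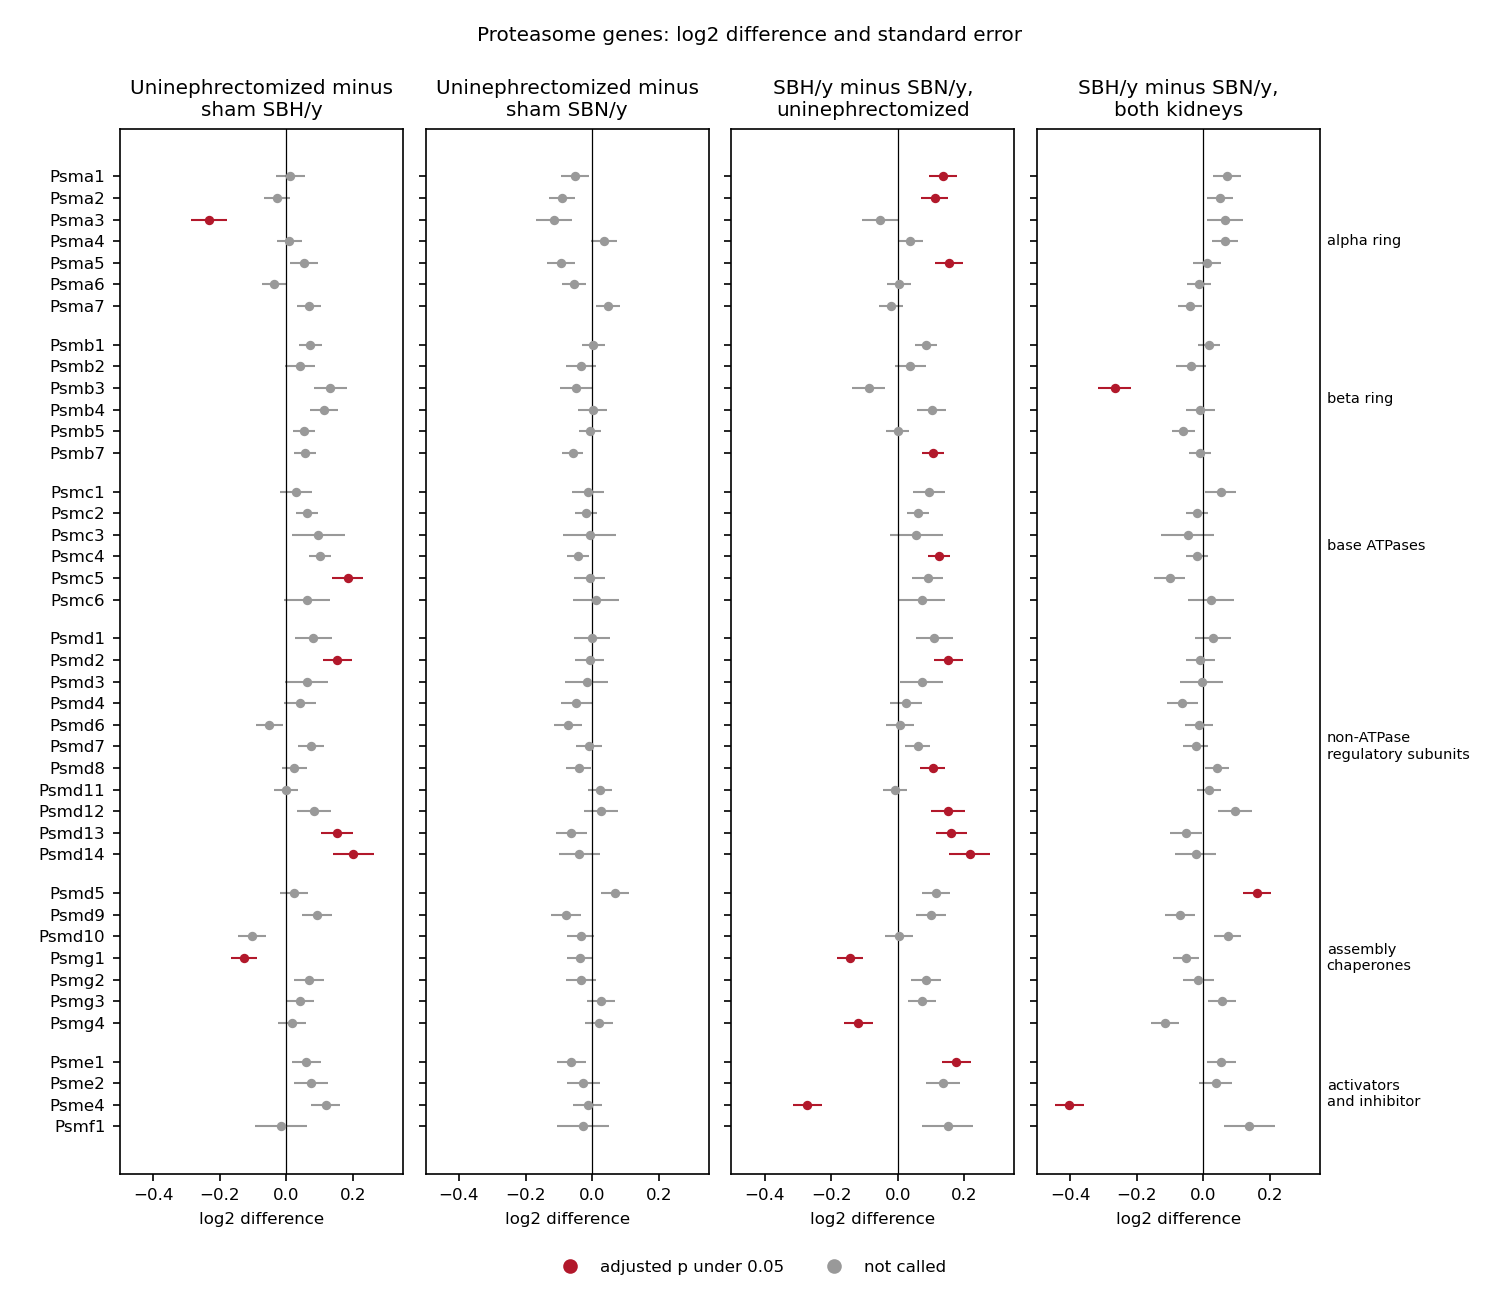
Log2 difference (x axis, log2 units) of each of the 41 proteasome genes (y axis, grouped by role) in the 4 comparisons between pairs of groups. Points are limma estimates from 7 arrays per group, bars are standard errors, and red points passed an adjusted p of 0.05; 6, 0, 14 and 3 genes are red, from left to right.

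Loss of a kidney in SBH/y was the first comparison. After uninephrectomy 4 of 41 proteasome genes rose and 2 fell, and 35 did not pass the threshold. All 4 that rose belong to the regulatory particle. They were the ATPase Psmc5 and 3 non-ATPase subunits, namely Psmd2, the large scaffold subunit that docks ubiquitin carriers, Psmd13 and Psmd14, the enzyme that cuts ubiquitin chains from substrates. Those that fell were the alpha ring gene Psma3 and Psmg1, a chaperone of alpha ring assembly. The 6 called genes were 14.6% of the members, where 8.24% of all probe sets were called, 3.33% higher and 4.91% lower. The 8.24% includes dim probe sets, which the members do not, so it is a low baseline for them. With the dimmest 40% of probe sets left out, 7 members were called. The share of the remaining probe sets called then came close to that of the members.

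Psmc5 had a lowest, median and highest log2 value of 9.10, 9.22 and 9.36 in uninephrectomized SBH/y, against 8.88, 9.08 and 9.16 in SBH/y with 2 kidneys. The groups overlapped, but all 7 arrays after uninephrectomy lay above the median of the sham group. The log2 difference was 0.18 ± 0.05 (SE, n = 7 arrays per group, limma adjusted p = 0.0115). Psmd2 lay at 9.94, 10.03 and 10.08 after uninephrectomy and at 9.72, 9.88 and 9.92 with 2 kidneys, so that the groups did not overlap. Its difference was 0.15 ± 0.04 (limma adjusted p = 0.0238), and the call was lost without SBH/y with 2 kidneys replicate 7 (difference 0.13).

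Psmd14 lay at 9.003, 9.12 and 9.28 in uninephrectomized SBH/y and at 8.70, 8.93 and 9.09 in SBH/y with 2 kidneys, with overlap. The difference of 0.20 ± 0.06 had a limma adjusted p of 0.0371 and rested on the probe set used. The other 2 probe sets of Psmd14 gave 0.07 and 0.07, neither called. For Psmd13, a subunit of the lid of the regulatory particle, the difference was 0.15 ± 0.05 (limma adjusted p = 0.0399), with values of 8.30, 8.45 and 8.52 after uninephrectomy and 8.14, 8.31 and 8.35 with 2 kidneys. The calls of Psmd13 and Psmd14 were each lost in 8 of 28 fits that left out 1 array, and with only the arrays of these groups in the fit.

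Psma3 lay at 7.70, 7.86 and 7.95 in uninephrectomized SBH/y, all below the 7.96, 8.06 and 8.19 of SBH/y with 2 kidneys. The highest array of the first group and the lowest of the other nearly touched, at 7.9544 and 7.9566. Its log2 difference was -0.23 ± 0.05 (limma adjusted p = 0.00592), the smallest adjusted p of the 41 genes in this comparison. A further probe set, which the annotation gives to Psma3 and to its near copy Psma3l, had a difference of 0.08 that was not called (limma adjusted p = 0.322), so the fall of Psma3 rests on 1 probe set and is uncertain. Psmg1 lay at 8.85, 8.96 and 9.01 after uninephrectomy and at 8.98, 9.07 and 9.17 with 2 kidneys. The difference of -0.13 ± 0.04 (limma adjusted p = 0.0372) lost its call in 10 of 28 fits that left out 1 array, and also with each array centred on its median, with the RNA quality covariate and with only the arrays of these groups in the fit.

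**Figure D2:**
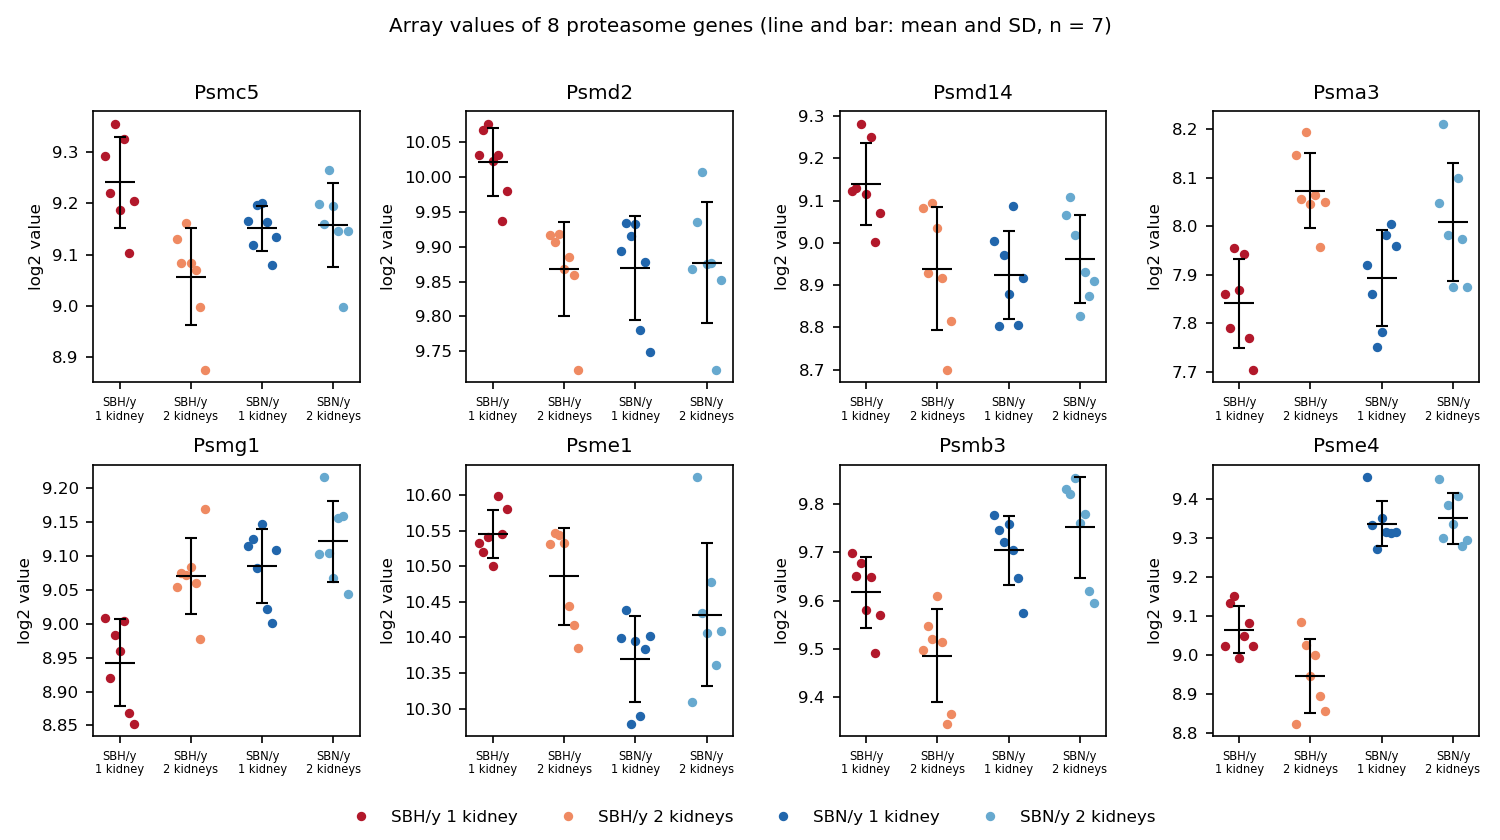
Log2 values (y axis, a separate range for each gene) of 8 proteasome genes in the 28 arrays, coloured by group. Each point is 1 array, and the line and bar are the mean and SD of 7 arrays; the uninephrectomized SBH/y arrays of Psmd2 and Psma3 do not overlap those of SBH/y with 2 kidneys, and the SBH/y arrays of Psme4 do not overlap those of SBN/y.

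Of the 35 genes without a call, 29 had a log2 difference above 0 and 6 below, with a median of 0.06. Over all members, 33 of 41 log2 differences were above 0, or 80.5%, against 53.5% of all probe sets. The median over all members was 0.06, against 0.01 over all probe sets. In the core particle, 10 of 13 differences were above 0 with a median of 0.05, and in the regulatory particle 15 of 17 with a median of 0.07. The 41 genes were read on the same arrays, so they are not 41 independent observations. By array, the mean over the 41 genes, each centred on its own mean over the arrays, ran between -0.03 and 0.11 in uninephrectomized SBH/y and between -0.09 and 0.05 in SBH/y with 2 kidneys. These groups overlapped.

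**Figure D3:**
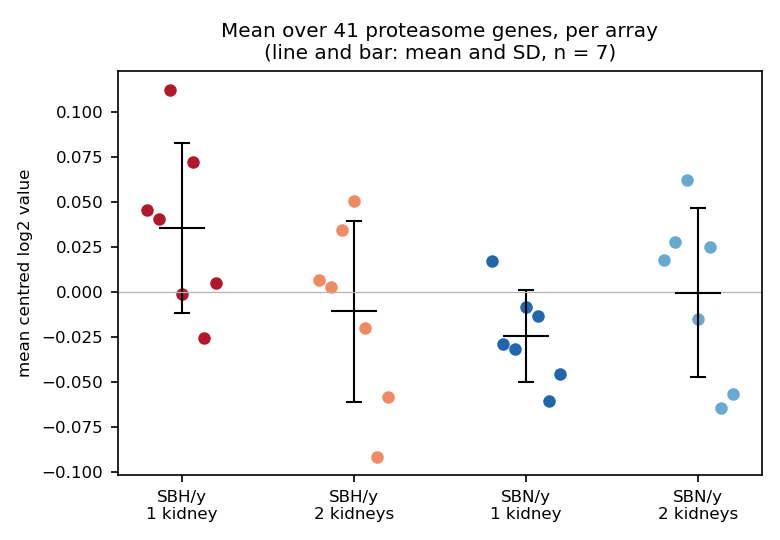
Mean log2 value over the 41 proteasome genes, each gene centred on its mean over 28 arrays (y axis, log2 units), by group (x axis). Points are arrays, and the line and bar are the mean and SD of 7 arrays; the group means lie between -0.02 in uninephrectomized SBN/y and 0.04 in uninephrectomized SBH/y.

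Several lists of cell type markers moved in the same comparison, counted by calls. Of 16 macrophage and leukocyte markers, 6 were higher and 0 lower in uninephrectomized than in sham SBH/y. The mean of their centred log2 values ran between 0.06 and 0.45 after uninephrectomy and between -0.04 and 0.28 with 2 kidneys. All 3 measured podocyte markers were lower, with a mean between -0.54 and -0.04 after uninephrectomy and between 0.05 and 0.18 with 2 kidneys. Of 7 lymphocyte markers 4 were higher and 0 lower, with a mean between 0.06 and 0.47 after uninephrectomy and between -0.28 and 0.13 with 2 kidneys. Of 3 endothelial markers 2 were lower, with a mean between -0.38 and -0.06 after uninephrectomy and between -0.19 and 0.09 with 2 kidneys. Both distal convoluted tubule markers were higher, with a mean between -0.32 and 0.09 after uninephrectomy and between -0.72 and -0.22 with 2 kidneys. Calb1, 1 of them, was also called higher after uninephrectomy in SBN/y, by 0.54 (limma adjusted p = 0.0152). Cldn16 of the thick ascending limb was called higher in SBN/y too, by 0.22 (limma adjusted p = 0.032). Slc5a2 of the proximal tubule was called lower in SBN/y, with a log2 difference of -0.37 (limma adjusted p = 0.0153). In SBH/y the other lists moved less. Higher were 1 of 6 proximal tubule, 1 of 3 thick ascending limb and 2 of 12 interferon markers, with 0 lower. Lower was 1 of 4 collecting duct markers, and 0 of 5 adipose markers were called. No marker is at 0 on this scale, and the part of these cells in the proteasome values was not tested.

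In SBN/y the same operation was followed by no called change of a proteasome gene. None of the 41 passed the threshold in limma, and 0.464% of all probe sets were called. An unadjusted p under 0.05 was reached by 3 of 41, or 7.32%, against 8.75% of all probe sets. The log2 differences ran between -0.12 for Psma3 and 0.07 for Psmd5, with 11 above 0 and 30 below and a median of -0.03. The share above 0 was 26.8%, against 50.4% of all probe sets. Psma3 lay at 7.75, 7.92 and 8.004 in uninephrectomized SBN/y and at 7.87, 7.98 and 8.21 in SBN/y with 2 kidneys. Psmc5 lay at 9.08, 9.16 and 9.20 after uninephrectomy and at 8.9985, 9.16 and 9.26 with 2 kidneys. For Psmd2 the values were 9.75, 9.89 and 9.93 after uninephrectomy and 9.72, 9.88 and 10.01 with 2 kidneys. In SBN/y all 3 genes overlapped between the groups, and the missing calls do not show that their RNA was unchanged.

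Whether the response to uninephrectomy differed between the strains was tested as an interaction, in which the SBN/y effect was subtracted from the SBH/y effect. No proteasome gene passed the threshold, where 1.41% of all probe sets did. The largest interaction was that of Psmd14 at 0.24 ± 0.09 (limma adjusted p = 0.199), followed by Psmd13 at 0.21 ± 0.07 (limma adjusted p = 0.11). An unadjusted p under 0.05 was reached by 10 of 41 genes, or 24.4%, against 11.8% of all probe sets. The 11.8% includes dim probe sets, which the members do not. Of the interactions, 34 of 41 were above 0. By this fit the called changes of SBH/y were not shown to differ from those of SBN/y. With quantile normalization of the deposited values 1 gene passed, Psmd13. With the replicate number as a block in the fit 3 passed, Psmb3, Psmc5 and Psmd13, though the labels do not say what the numbers mark.

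**Figure D4:**
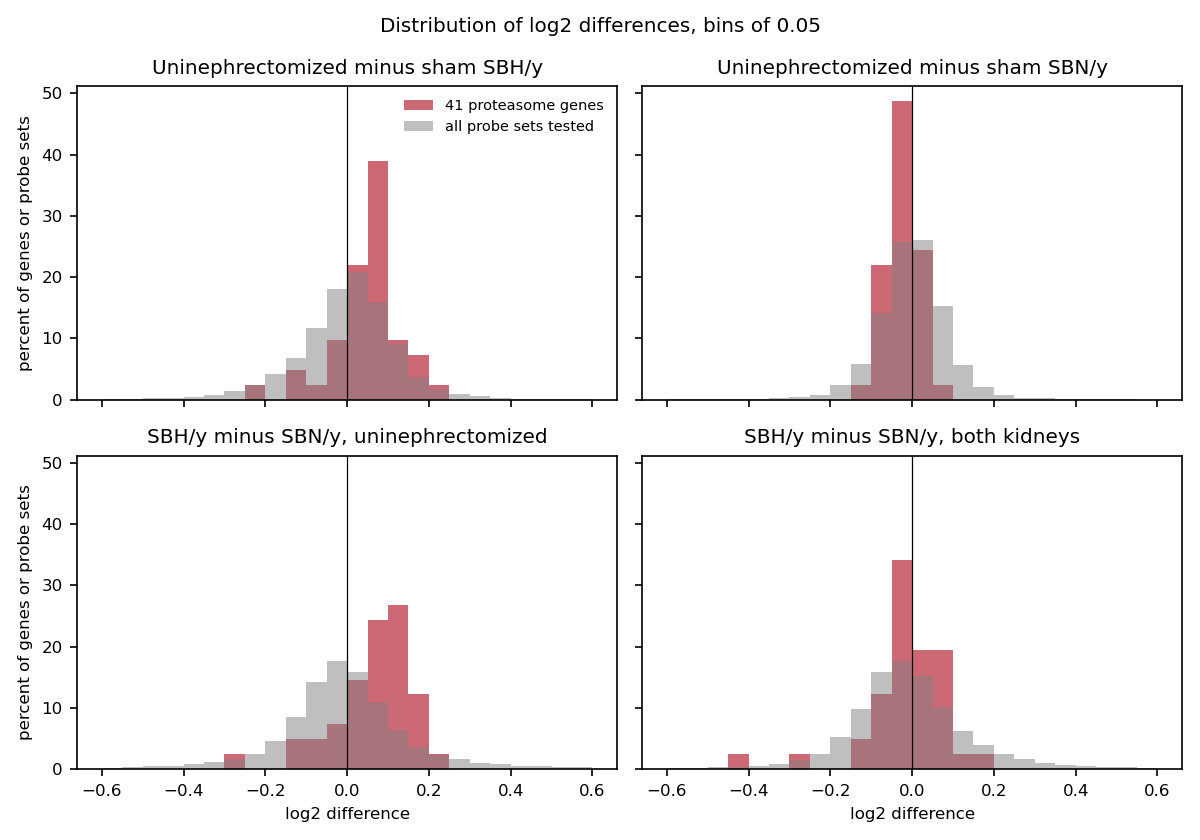
Distribution of log2 differences (x axis, bins of 0.05 log2 units) for the 41 proteasome genes in red and for all 31042 probe sets in grey, as a percent of each set (y axis), in the 4 comparisons. The proteasome genes have medians of 0.06 and -0.03 for uninephrectomy in SBH/y and SBN/y, and of 0.08 and -0.01 for the strain difference after uninephrectomy and with both kidneys.

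The strains were next compared after uninephrectomy, where proteasome genes were called most often. Of 41 genes, 11 were higher in SBH/y than in SBN/y and 3 lower, or 34.1% in all. Over all probe sets 21.5% were called, 11.1% higher and 10.3% lower. This baseline too includes dim probe sets. With the dimmest 40% of probe sets left out, the share of probe sets called was higher than 21.5%, and 17 members were called. The genes higher in SBH/y were Psma1, Psma2 and Psma5 of the alpha ring, Psmb7 of the beta ring (a trypsin-like cutting subunit), the ATPase Psmc4, the regulatory subunits Psmd2, Psmd8, Psmd12, Psmd13 and Psmd14, and the activator Psme1. Those lower in SBH/y were the activator Psme4 and the assembly chaperones Psmg1 and Psmg4.

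Among the genes that were higher, Psme1 lay at 10.50, 10.54 and 10.60 in uninephrectomized SBH/y, above the 10.28, 10.40 and 10.44 of uninephrectomized SBN/y. Psme1 is a subunit of an ATP-independent cap that is induced by interferon, and its difference was 0.18 ± 0.04 (limma adjusted p = 0.00266). A dim second probe set of Psme1, with a mean of 4.78, gave -0.03 and no call. Psma5 lay at 9.69, 9.76 and 9.82 in uninephrectomized SBH/y and at 9.54, 9.62 and 9.63 in uninephrectomized SBN/y, again without overlap, and differed by 0.15 ± 0.04 (limma adjusted p = 0.00633). Psmc4 lay at 9.76, 9.83 and 9.92 in SBH/y and at 9.66, 9.70 and 9.79 in SBN/y, with a difference of 0.12 ± 0.03 (limma adjusted p = 0.00663). A dim second probe set of Psmc4, with a mean of 4.96, gave -0.08 and no call.

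For Psmd14, after uninephrectomy all 3 probe sets were higher in SBH/y than in SBN/y, with log2 differences of 0.22, 0.28 and 0.33. The values of the probe set used here were 9.003, 9.12 and 9.28 in SBH/y and 8.80, 8.92 and 9.09 in SBN/y. Differences of the other called genes that were higher ran between 0.10 for Psmd8 and 0.16 for Psmd13. Psmg1 lay at 8.85, 8.96 and 9.01 in SBH/y and at 9.0003, 9.11 and 9.15 in SBN/y, a difference of -0.14 ± 0.04 (limma adjusted p = 0.0069). Psmg4, another assembly chaperone, differed by -0.12 ± 0.04 (limma adjusted p = 0.0471), with values of 9.15, 9.22 and 9.31 in SBH/y and 9.25, 9.33 and 9.42 in SBN/y. The Psmg4 call was lost in 18 of 28 fits that left out 1 array. So were those of Psma2 in 11, Psmd8 in 9, Psmd12 in 7 and Psma1 in 1, and quantile normalization ended the calls of Psma1, Psma2 and Psmb7.

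As a whole, 33 of 41 differences were above 0, or 80.5%, where 46.2% of all probe sets were. The median was 0.08, against -0.01 over all probe sets. By role the medians were 0.04 in the alpha ring, 0.06 in the beta ring, 0.08 among the ATPases, 0.10 among the non-ATPase subunits, 0.07 among the assembly chaperones and 0.14 in the set of activators and an inhibitor. The mean over the 41 genes ran between -0.03 and 0.11 in uninephrectomized SBH/y arrays and between -0.06 and 0.02 in uninephrectomized SBN/y arrays. Without SBN/y replicate 4 of the uninephrectomized group, 9 genes were called in place of 14. This comparison shares the uninephrectomized SBH/y arrays with the comparison within SBH/y above.

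With both kidneys in place few proteasome genes differed between the strains. Psmd5 was higher in SBH/y, Psmb3 and Psme4 were lower, and 38 of 41 genes did not pass the threshold. The share called was 7.32%, below the 17.9% of all probe sets, of which 9.64% were higher and 8.31% lower. The median difference was -0.01 and 18 of 41 differences were above 0.

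Psmd5, a chaperone that escorts ATPases during assembly of the regulatory particle, lay at 9.04, 9.18 and 9.24 in SBH/y with 2 kidneys and at 8.87, 8.98 and 9.18 in SBN/y with 2 kidneys. The difference was 0.16 ± 0.04 (limma adjusted p = 0.00615). After uninephrectomy the strain difference of Psmd5 was 0.11 ± 0.04, just short of the threshold (limma adjusted p = 0.0508), although the groups did not overlap, and it was called in 9 of 9 alternatives that used its probe set. Psmb3, a beta ring subunit without a cutting site, lay at 9.34, 9.51 and 9.61 in SBH/y and at 9.59, 9.78 and 9.85 in SBN/y, with overlap. It differed by -0.27 ± 0.05 (limma adjusted p = 0.000179). After uninephrectomy its strain difference was -0.09 ± 0.05 and was not called. The interaction of 0.18 ± 0.07 did not pass either in the reported fit (limma adjusted p = 0.262), but did with the replicate block.

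Psme4 differed most of all members and in both states. It encodes a large single-chain activator that caps the core without ATP and, in mouse, serves the breakdown of acetylated histones in sperm formation. With both kidneys it lay at 8.82, 8.94 and 9.08 in SBH/y, below the 9.28, 9.34 and 9.45 of SBN/y. The difference was -0.40 ± 0.04 (limma adjusted p = 1.76e-08). After uninephrectomy the values were 8.99, 9.05 and 9.15 in SBH/y and 9.27, 9.32 and 9.45 in SBN/y, a difference of -0.27 ± 0.04 (limma adjusted p = 1.43e-05). No array of either SBH/y group reached the lowest SBN/y array in the same state.

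All 3 probe sets of Psme4 were lower in SBH/y in both states. The other 2 gave -0.41 and -0.28 with both kidneys and -0.28 and -0.45 after uninephrectomy. They did not move alike with the operation in SBH/y, where the brightest gave 0.12 ± 0.04 (limma adjusted p = 0.0936), the next 0.08 and the third -0.17 with a call in the opposite direction (limma adjusted p = 0.027). The response of Psme4 to uninephrectomy in SBH/y is therefore uncertain. In any strain difference, altered RNA level and altered probe binding through a strain's own sequence cannot be told apart.

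**Figure D5:**
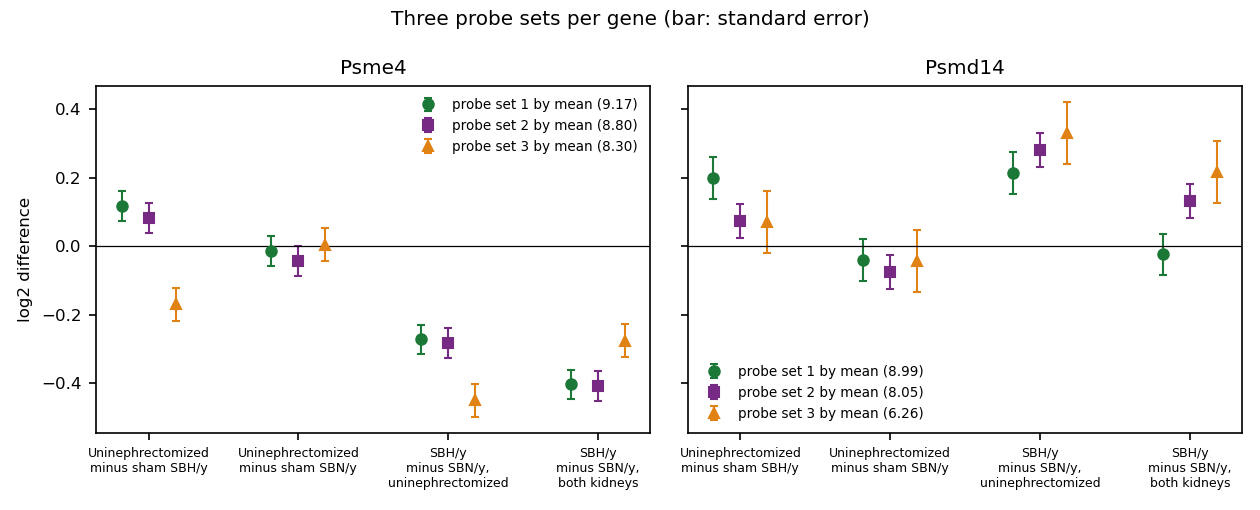
Log2 difference (y axis, log2 units) in the 4 comparisons (x axis) for each of the 3 probe sets of Psme4 and of Psmd14, numbered by their mean over 28 arrays, which the key gives. Bars are standard errors from limma; all 3 Psme4 probe sets lie below 0 in both strain comparisons, while they split in sign for uninephrectomy in SBH/y.

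Only 9 of the 41 genes had more than 1 probe set. For Psmb5, the chymotrypsin-like cutting subunit and the target of proteasome inhibitors, none of the 3 probe sets was called in any comparison, and the brightest differed by 0.05 for uninephrectomy in SBH/y and by -0.06 between the strains with both kidneys. None of the 3 probe sets of the ATPase Psmc6 was called either. Between the uninephrectomized strains, the dimmest probe set of the lid subunit Psmd11 had a log2 difference of -0.14, lower in SBH/y (limma adjusted p = 0.049), while its brightest differed by -0.01 without a call. In the same comparison the second probe set of Psmd7, another lid subunit, was higher in SBH/y by 0.13 (limma adjusted p = 0.0296), where the brightest gave 0.06 without a call. With both kidneys, the dimmer probe set of the assembly chaperone Psmd9 was lower in SBH/y at a log2 difference of -0.19 (limma adjusted p = 0.0184), where the brighter gave -0.07 without a call.

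Genes that work with the proteasome were taken from 4 lists, of which 32 of 38 genes were measured by a probe set of their own. Of the proteasome-bound factors and assembly factors, 3 of 9 were called between the uninephrectomized strains, all higher in SBH/y than in SBN/y. Over all probe sets 21.5% were called in this comparison, 11.1% higher. These were the ubiquitin-cutting enzymes Usp14 at 0.11 and Uchl5 at 0.13, and the ubiquitin ligase Ube3c at 0.14. Ube3c was also higher with both kidneys in place, at 0.15. Within either strain, 0 of 9 were called after the operation. Pomp, the chaperone that matures the core, differed by 0.04 for uninephrectomy in SBH/y and by 0.04 between the strains after uninephrectomy, without a call.

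Nfe2l1, the transcription factor that raises subunit genes, was not called in any comparison. It lay at 8.19, 8.30 and 8.39 in uninephrectomized SBH/y, at 8.06, 8.18 and 8.28 in SBH/y with 2 kidneys, at 7.96, 8.17 and 8.58 in uninephrectomized SBN/y and at 7.86, 8.12 and 8.24 in SBN/y with 2 kidneys. Ddi2, the protease that activates the Nfe2l1 protein, was higher in SBH/y with 2 kidneys than in SBN/y with 2 kidneys, by 0.27 (limma adjusted p = 0.037). Ngly1, another gene of expression control, was higher in the same comparison by 0.20 (limma adjusted p = 0.00283). Of 6 genes of expression control, 0 were called for uninephrectomy in either strain. Stat3, a cytokine-activated transcription factor, was lower in SBH/y in both states, by log2 differences of -1.02 and -1.07 after uninephrectomy and with both kidneys.

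In the list of ubiquitin genes and delivery factors, 3 of 10 genes were higher and 1 lower in SBH/y than in SBN/y after uninephrectomy. Of all probe sets, 11.1% were called higher and 10.3% lower. Vcp, the segregase that pulls ubiquitinated proteins out of complexes, was higher by 0.51 after uninephrectomy and by 0.39 with both kidneys. Its partner Nploc4 was higher by 0.23 and the ubiquitin carrier Rad23b by 0.14 after uninephrectomy, while the carrier Ubqln4 was lower, with a log2 difference of -0.24. For uninephrectomy in SBH/y, Rad23b rose by 0.16 (limma adjusted p = 0.012) and Zfand5, which in mouse activates the proteasome in muscle wasting, fell by 0.19 (limma adjusted p = 0.00161). With both kidneys Ubqln2 was higher in SBH/y than in SBN/y, by 0.21 (limma adjusted p = 0.00391). Zfand5 was higher there too, by 0.15 (limma adjusted p = 0.0047), and 0 of the 10 genes were called lower.

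The immunoproteasome genes, which are not members, were called higher in SBH/y after uninephrectomy. After uninephrectomy Psmb8 lay at 7.37, 7.70 and 7.91 in SBH/y, above the 7.02, 7.22 and 7.28 of SBN/y. The strain difference was 0.48 for Psmb8, 0.63 for Psmb9 and 0.34 for Psmb10, all called. With both kidneys only Psmb9 of these 3 was called, at 0.40 (limma adjusted p = 0.00632). Uninephrectomy in SBH/y was followed by a rise of Psmb8 by 0.29 (limma adjusted p = 0.0347), whereas Psmb9 and Psmb10 differed by 0.20 and 0.16 without a call. Psme1 and Psme2 form 1 cap together, and Psme2 differed by 0.14 ± 0.05 between the uninephrectomized strains, just short of the threshold (limma adjusted p = 0.052).

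Most macrophage and interferon markers were called higher in SBH/y than in SBN/y in both states, and most lymphocyte markers were not. Between the uninephrectomized strains, 13 of 16 macrophage and leukocyte markers were higher in SBH/y and 1 was lower. The mean of their centred log2 values ran between 0.06 and 0.45 in SBH/y and between -0.29 and -0.12 in SBN/y. Of 12 interferon response genes, 10 were higher and 0 lower, with means between 0.02 and 0.38 in SBH/y and between -0.48 and -0.20 in SBN/y. With both kidneys 10 of 16 and 8 of 12 were higher. Of 7 lymphocyte markers, 1 was higher in SBH/y and 0 lower after uninephrectomy, and with both kidneys 1 was higher and 3 were lower. The part of these cells or signals in the values of Psme1 and the other proteasome genes was not tested.

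Promoter sequences were read for 37 of the 41 genes, from 250 bases before to 50 bases after the start site, in RefSeq's annotation of the rat genome GRCr8. There was no entry used for Psma7, Psmd6, Psmd12 and Psmd14. The core of the antioxidant response element, TGACNNNGC, at which Nfe2l1 and Nfe2l2 bind DNA, was searched on both strands. It occurred in 7 of 37 members, or 18.9%, and in 12.2% of all 27457 promoters of the same length. The members were Psma3, Psmb2, Psmb5, Psmd1, Psmd3, Psmd9 and Psme4. Of these 7, 1 was called for uninephrectomy in SBH/y, or 14.3%. It was Psma3, which fell by the probe set used. Of the 30 members without the core, 4 were called, or 13.3%, a like share. Over all probe sets, dim ones included, 8.24% were called. The letters CCAAT, of the CCAAT box, occurred in 18 of 37 members, or 48.6%, against 37.7% of all promoters. GGGCGG, the GC box bound by Sp family factors, occurred in 27 of 37, or 73%, against 34.9%. Of the 9 matches of the antioxidant core, 1 overlapped a match of another motif.

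The last 150 bases before the start site are shown, on the gene's own strand, for the 3 genes with the core and the smallest p for uninephrectomy in SBH/y, since these include the called gene that fell and the gene that differed most between the strains. Capitals mark the core, which reads 5' to 3' on the opposite strand in Psma3 and Psme4 and once on each strand in Psmd9. The stretches are chr6:95219599-95219748, plus strand, for Psma3, chr14:108706493-108706642, plus strand, for Psme4, and chr12:39018265-39018414, minus strand, for Psmd9, all in GRCr8.
Psma3: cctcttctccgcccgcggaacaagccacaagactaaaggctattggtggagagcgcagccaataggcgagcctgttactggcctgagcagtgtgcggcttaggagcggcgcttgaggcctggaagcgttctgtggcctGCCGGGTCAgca
Psme4: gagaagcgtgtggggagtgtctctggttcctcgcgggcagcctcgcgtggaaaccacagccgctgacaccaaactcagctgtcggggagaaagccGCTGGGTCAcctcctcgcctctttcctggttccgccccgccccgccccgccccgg
Psmd9: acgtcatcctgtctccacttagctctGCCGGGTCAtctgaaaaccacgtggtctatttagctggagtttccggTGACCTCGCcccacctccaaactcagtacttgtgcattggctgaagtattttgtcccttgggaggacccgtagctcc

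In Psma3 the match ran from -12 to -4, counted from the start site, in Psme4 from -55 to -47, and in Psmd9 from -124 to -116 and from -77 to -69. The share of G and C in the 150 bases was 62% for Psma3, 68.7% for Psme4 and 53.3% for Psmd9. Psmd9, an assembly chaperone of the regulatory particle, had a log2 difference of 0.09 ± 0.04 for uninephrectomy in SBH/y that did not pass (limma adjusted p = 0.228). A match describes these letters only, and binding was not measured.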

How the data were processed

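Per the labels' protocols, total RNA was extracted with an RNeasy kit and labelled with biotin for Affymetrix arrays. The authors deposited 1 table of log2 values, 31099 probe sets on 28 arrays. Per the submitters' processing notes, GCOS and RMA were used. Their versions, and whether 1 RMA run covered every array, are not given in the sources used here. This method corrects background, quantile-normalizes and summarises probe sets, so total RNA differences are not seen. The number of arrays limits the precision.

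After removing 57 control probe sets, 1 mean per group was fitted to all 28 arrays by lmFit and eBayes of limma 3.58.1 (R 4.3.3; two-sided tests), with Benjamini-Hochberg adjustment over 31042 probe sets and a threshold of 0.05. The procedure was tested on simulated data. Probe sets were named by the platform annotation, and related genes by symbols updated to RefSeq's GRCr8 gene table through gene identifiers. Of the probe sets, 20826 had 1 symbol, 436 several and 9780 none.

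Values in every group are given for up to 3 called members of smallest p per direction in each comparison and for the member of smallest p in each role in the SBH/y uninephrectomy comparison. Psmd13 was added after its values were seen, as the fourth member called higher there. Related genes always given were Nfe2l1, Ddi2, Pomp and the immunoproteasome genes, besides up to 4 others called. Some of the further called related genes (where a list had 5 or fewer), Psme2, and the members described by several probe sets were named after their values were seen. Members and lists were chosen with earlier results of these data known. Alternatives were other normalizations, filters, variance models, covariates, weights and probe sets, and leaving out arrays.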

Additional observations from a re-analysis of the deposited data

Results flagged for a closer look

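Among the proteasome genes given with values in every group, a single array lay far from the other 6 of its group in 2 cases. Psmd2 in SBH/y with 2 kidneys replicate 7 had a log2 value of 9.72, where the other arrays of the group lay between 9.86 and 9.92. The gap was 0.699 of the group's range, above Dixon's critical value for 7 arrays. Psmd5 in SBH/y with 2 kidneys replicate 6 had a value of 9.04, where the others lay between 9.16 and 9.24, a gap of 0.592 of the range. In all, 52 groups of arrays were examined this way, and chance flags about 1 in 20.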

How the results depend on the processing

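No member was called for uninephrectomy in SBN/y under any of the 10 alternatives or the 28 fits that left out 1 array. For uninephrectomy in SBH/y, 6 members were called as reported, 3 to 9 under the alternatives, with 3 when only the arrays of the groups compared were fitted, and 3 to 6 with 1 array left out. It was 3 without uninephrectomized SBH/y replicate 4, and also without replicate 5 or replicate 7 of SBH/y with 2 kidneys. The strain comparison after uninephrectomy called 14, 12 to 18 under the alternatives and 9 to 15 with 1 array left out. With both kidneys it called 3, and 5 with quantile normalization, which added Psmc5 and Psmg4, and 3 to 4 with 1 array left out. In the interaction quantile normalization called 1, Psmd13 (adjusted p = 0.0267), and 0 were called with 1 array left out. An interaction fitted to the arrays of only the groups compared is the reported fit, so it was not run. The cause of these changes was not tested. Same-numbered arrays of the groups compared deviated together with a correlation of -0.21 to 0.504, over 0.1 in 18 of 28 pairs. In every group replicate 6 had the lowest mean over the proteasome genes. The labels do not say whether the numbers mark a batch or a pairing, and this was not tested. The reported fits do not use the numbers, so any shared variation of this kind stays in them. With the replicate number as a block, 9, 0 and 17 members were called for uninephrectomy in SBH/y, in SBN/y and between the uninephrectomized strains. The block called 5 between the strains with both kidneys and 3 in the interaction, Psmb3, Psmc5 and Psmd13. Of 23 called values, 11 kept call and direction in every alternative and fit run. Only the second probe sets of Psmc4 and Psme1, in the strain comparison after uninephrectomy, turned the direction, to -0.082 and -0.026. Leaving out the 2 arrays of lowest weight, chosen after the weights were seen, called 5 members for uninephrectomy in SBH/y and 0 in SBN/y. That fit called 15 between the uninephrectomized strains, 3 between the strains with both kidneys and 0 in the interaction.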
